A study of Mus musculus with 4 samples.

Results

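The mitochondrial ribosomal protein genes were described here in the mouse mammary carcinoma line 4T1, grown in culture with and without a knockdown of Ldha, which encodes lactate dehydrogenase A. They were chosen by name: every gene whose symbol in the platform's probe annotation begins with Mrpl (large subunit) or Mrps (small subunit) followed by a digit, and that had a probe set with that symbol alone. This gave 71 genes of the 22180 tested, 43 of the large and 28 of the small subunit by symbol. A further 7 such genes (Mrpl30, Mrpl33, Mrpl41, Mrpl43, Mrpl44, Mrpl53 and Mrps6) shared all of their probe sets with another gene and were not analysed here. No gene was lost to a filter on low values, since none was applied.

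The control group, scramble, carried a short hairpin RNA of scrambled sequence, and the other group, shLDHA, one against Ldha. After the Ldha hairpin was introduced, resistant cells were kept in 10 µg/ml puromycin and combined, so shLDHA is a mixed population and not 1 clone. The labels do not say whether scramble cells were selected too, so selection and knockdown cannot be told apart. Both groups grew for 24 hours in complete medium. A whole-transcript Affymetrix array was hybridized from 400 ng of each sample's total RNA. Each group had 2 arrays. The labels do not say that they came from separate cultures, so each p-value reflects only how far these arrays differ, and that spread may be technical. The small number of arrays limits the precision.

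The mitoribosome sits in the mitochondrial matrix and translates the few messenger RNAs of mitochondrial DNA, all of which encode subunits of the respiratory chain and ATP synthase. Its ribosomal RNAs come from mitochondrial DNA, but all of its proteins are made from nuclear genes and imported. The small subunit reads the messenger RNA, and the large subunit joins the amino acids and feeds the nascent chain to the inner membrane. Many of these proteins have a bacterial homologue, and others were added during the evolution of mitochondria.

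Ldha itself was lower in shLDHA. Its deposited log2 signal was 6.69 and 6.96 in scramble, and 6.31 and 6.15 in shLDHA. The difference of the means was -0.59 (SE 0.12), 1.51-fold lower, and it passed limma's test with an adjusted p of 0.0390. The call was lost without scramble replicate 2 (limma's adjusted p = 0.128), shLDHA replicate 1 (0.0965) or shLDHA replicate 2 (0.163). The epithelial markers Epcam, Krt8, Krt18, Krt19, Cdh1 and Cldn4 read between 6.60 and 10.36 as means over the 4 arrays. Of these 6, Epcam (0.53) and Krt8 (0.47) passed as higher, Krt18 (0.24) and Cdh1 (0.04) were above 0, and Krt19 (-0.33) and Cldn4 (-0.23) below it. Both calls were lost without any 1 of the arrays, with limma's adjusted p from 0.0650 to 0.114. Summed over the 6 genes, the epithelial signal (log2) was 11.998 and 11.988 for scramble, lower than for shLDHA at 12.175 and 12.172, and its part in the results was not tested. None of the measured markers of fibroblasts, leukocytes and endothelium passed. The leukocyte and endothelial markers stayed between 2.58 and 3.73, below the level under which 95% of 1105 olfactory receptor genes lay (4.19). Of the fibroblast markers only Pdgfra lay above that level, and the summed fibroblast signal ran from 6.79 to 6.84 in scramble and from 6.69 to 6.88 in shLDHA.

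No mitoribosomal gene passed the test. Of the 71 genes, 0 were higher and 0 lower in shLDHA at an adjusted p under 0.05 in limma's fit over all genes, where 6.36% of all 22180 genes passed, 3.37% higher and 2.99% lower. The median log2 change was 0.0010 over the 71 genes and 0.0064 over all genes. The changes ran from -0.33 for Mrps26 to 0.56 for Mrps18c, and 38 were above and 33 below 0. At an unadjusted p under 0.05, 19 of the 71 passed, against 21.5% of all genes; 11 were higher and 8 lower, against 11.3% and 10.2%. At an adjusted p under 0.1, 6 were higher and 0 lower, against 5.73% and 5.05% of all genes.

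The 95% interval of the log2 change lay inside -1 to 1, within 2-fold either way, for 71 of the 71 genes, and for 98.3% of all genes. It lay inside -0.5 to 0.5 (within 1.41-fold) for 57 of the 71 (80.3%), and for 78.1% of all genes. The size of the change exceeded 0.5 for 1 of the 71, Mrps18c, and for 4.66% of all genes. The median size of the change was 0.12 in the 71 genes, beside a median difference of 0.09 between 2 arrays of the same group. Over all genes these values were 0.11 and 0.10. Changes of this size were close to their SE (median 0.09 in the 71 genes) and so hard to detect with 2 arrays per group. Even Mrpl16, with a change of 0.38 (SE 0.08), did not pass. In simulated data with 22180 genes, 200 of them changed, the same fit recovered 5.10% of genes changed by 0.5. It recovered 88.3% of genes changed by 1. In the deposited data 6.36% of genes passed, a larger share than was changed in the simulation. The adjustment was therefore less strict there, and the recovered shares do not carry over to it.

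**Figure D1:**
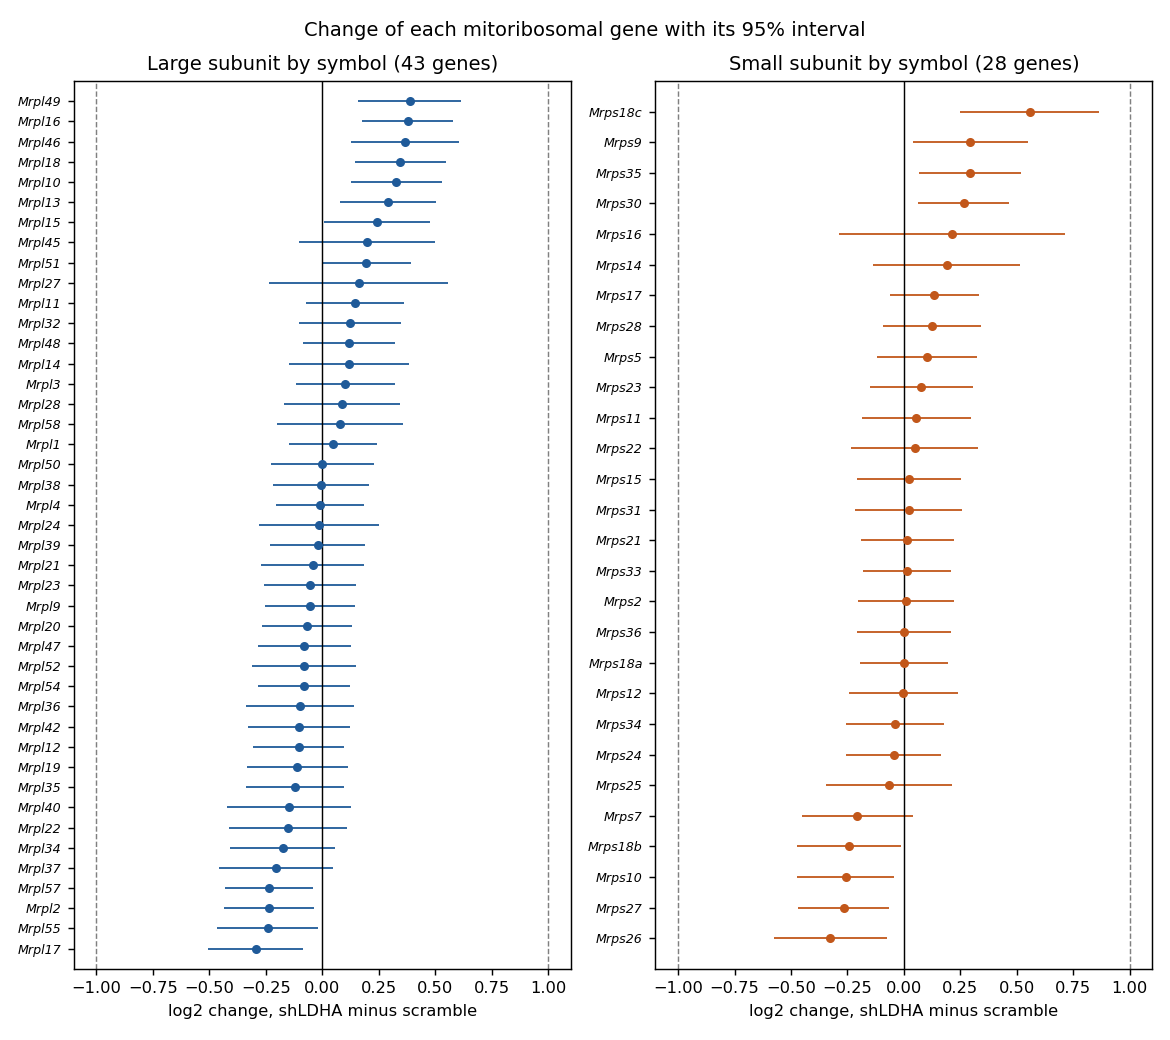
Log2 change (shLDHA minus scramble, x axis) of each of the 71 mitoribosomal genes, large subunit on the left and small subunit on the right, in order of the change. Points are the differences of means of 2 arrays each, bars are unadjusted 95% intervals, and dashed lines mark -1 and 1, a 2-fold change; every interval lies between them.

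The large and the small subunit lay close together. The median log2 change was -0.0143 over the 43 large subunit genes and 0.0183 over the 28 small subunit genes, a difference of 0.0326. On the single arrays, the median deviation of the large subunit genes from their own means was 0.0073 and -0.0332 in scramble and -0.0222 and 0.0038 in shLDHA. For the small subunit it was 0.0117 and -0.0328 in scramble and -0.0192 and 0.0513 in shLDHA. In both subunits the values of the groups overlapped. More small subunit genes lay above 0 than below (19 against 9), while in the large subunit 19 lay above and 24 below. Neither median kept its sign throughout: the small subunit's ran from -0.0044 to 0.0604 when each array was left out in turn, and the large subunit's was 0.0005 with quantile normalization applied again.

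The symbol does not always give the place of a protein. Mrps30 and Mrps18a are named after the small subunit but sit in the large subunit of the mammalian mitoribosome, and Mrps36 is now known as a component of the 2-oxoglutarate dehydrogenase complex. Dap3, Ptcd3 and Gadd45gip1 encode mitoribosomal subunits under other symbols. With these genes put in their place, the medians were -0.0123 over 46 large subunit genes and 0.0216 over 27 small subunit genes. Split by origin, the 42 genes of proteins with a bacterial homologue had a median of 0.0189, and the 28 of proteins specific to mitochondria one of -0.0020. The second group held Mrps18a and Mrps18b, paralogues of a bacterial protein at places of their own. With both moved to the first, the medians were 0.0120 over 44 and -0.0015 over 26.

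**Figure D2:**
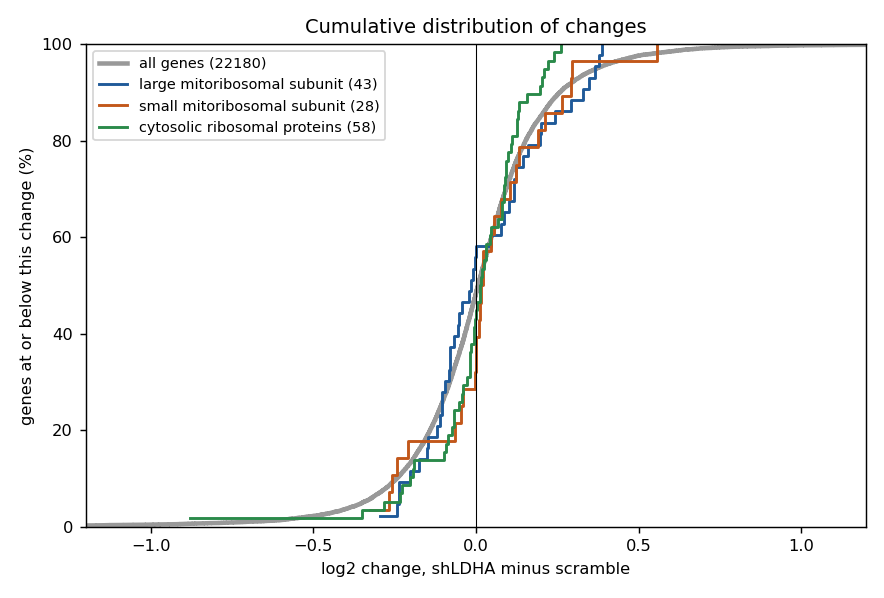
Cumulative share of genes (y axis, percent) at or below each log2 change (x axis, shLDHA minus scramble). Curves are for all 22180 genes, the 43 large and 28 small subunit genes of the mitoribosome and 58 genes with cytosolic ribosomal protein symbols. The curves cross 50% near 0, at medians from -0.0143 to 0.0183; the x axis is cut on both sides, so the most changed of all genes lie outside it.

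By role, the large subunit is taken first. Mrpl16, the homologue of a bacterial protein next to the peptidyl transferase centre, had the smallest p of the 71 genes. It read 6.72 and 6.65 in scramble and 7.10 and 7.04 in shLDHA, a log2 change of 0.38 (SE 0.08, limma's adjusted p = 0.0525). Both shLDHA arrays were above both scramble arrays, as for 13 of the 43 large subunit genes and 26.2% of all genes. Mrpl49, a subunit specific to mitochondria, read 7.51 and 7.48 in scramble and 7.79 and 7.97 in shLDHA (log2 change 0.39, SE 0.10, limma's adjusted p = 0.0697). The groups did not overlap here either, and the shLDHA arrays were the more scattered.

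The stalk recruits translation factors to the ribosome. The changes of its genes lay on both sides of 0, but the intervals of Mrpl11 and Mrpl12 included 0. Mrpl10, which anchors the stalk, read 7.78 and 7.79 in scramble and 8.07 and 8.16 in shLDHA, a log2 change of 0.33 (SE 0.08, limma's adjusted p = 0.0775). Mrpl12, the stalk protein itself, which has also been reported to bind the mitochondrial RNA polymerase, read 7.45 and 7.36 in scramble and 7.30 and 7.30 in shLDHA. Its change was -0.10 with a 95% interval from -0.31 to 0.10, and Mrpl11, at the base of the stalk, had 0.14 with an interval from -0.07 to 0.36. None of the 3 passed. Mrpl1, the homologue of the protein of the mobile stalk on the other side of the subunit, was 6.44 and 6.43 in scramble against 6.47 and 6.50 in shLDHA, a change of 0.05 with a 95% interval from -0.15 to 0.24.

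In the central protuberance, which in mammals holds a transfer RNA in place of the 5S ribosomal RNA, 0 of 7 genes passed, and the median change was 0.12. At an unadjusted p under 0.05, 2 of the 7 did, beside 21.5% of all genes. Mrpl18 read 8.03 and 8.02 in scramble and 8.33 and 8.41 in shLDHA (log2 change 0.35, SE 0.08, limma's adjusted p = 0.0665). Mrpl46 read 4.96 and 5.16 in scramble and 5.47 and 5.38 in shLDHA (log2 change 0.37, limma's adjusted p = 0.0904). Neither gene's groups overlapped. Mrpl58, a peptidyl-tRNA hydrolase of the release factor family built into the ribosome, changed by 0.08, with scramble at 7.49 and 7.34 and shLDHA at 7.36 and 7.62, which overlap. Mrpl40 (-0.15) and Mrpl38 (-0.0040) were below 0. Mrpl48 (0.12) and Mrpl27 (0.16) had a low signal, treated below with the other dim genes.

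Around the exit of the peptide tunnel, 5 of 6 genes were below 0, beside 10699 of all 22180 genes. None of the 6 passed, and their median was -0.07. At an unadjusted p under 0.05, 1 of the 6 passed, beside 21.5% of all genes. Mrpl17 read 7.75 and 7.83 in scramble and 7.44 and 7.54 in shLDHA, a log2 change of -0.29 (SE 0.09, limma's adjusted p = 0.115), and its groups did not overlap. Mrpl45, which tethers the ribosome to the inner membrane, was the exception at 0.20, with shLDHA at 7.81 and 8.12 and scramble at 7.84 and 7.69. Mrpl24, one of the 4 brightest probe sets, read 9.52 and 9.31 in scramble and 9.31 and 9.49 in shLDHA, and its change was -0.0143, which turned to 0.0047 with quantile normalization applied again.

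Of the remaining large subunit genes with the most negative changes, Mrpl2 encodes another protein near the peptidyl transferase centre, and Mrpl55 and Mrpl57 are specific to mitochondria. Mrpl2 read 7.84 and 7.80 in scramble and 7.55 and 7.62 in shLDHA (log2 change -0.24). Mrpl55 read 7.02 and 6.90 against 6.66 and 6.78 (-0.24), and Mrpl57 read 6.88 and 6.89 against 6.62 and 6.67 (-0.24). In all 3 both shLDHA arrays were below both scramble arrays, as in 12 of the 43 large subunit genes and 24.0% of all genes, and limma's adjusted p ran from 0.161 to 0.199. Mrpl13, one of the 4 brightest members, had a change of 0.29 and Mrpl52 one of -0.08.

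**Figure D3:**
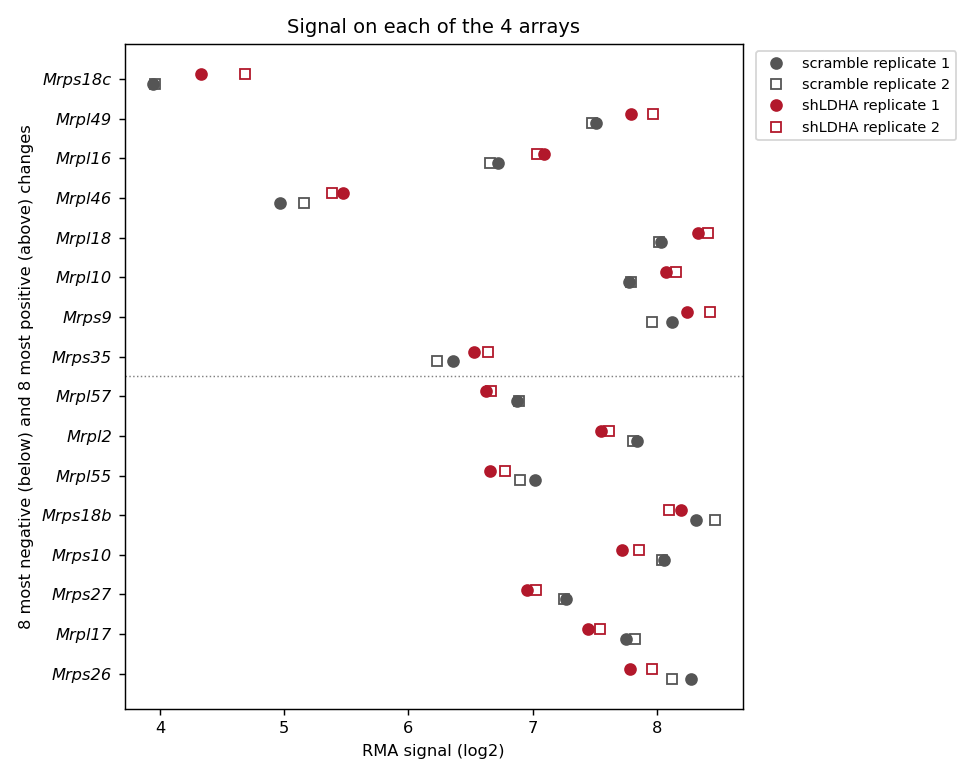
RMA signal (log2, x axis) on each of the 4 arrays for the 8 mitoribosomal genes with the most negative change (below the dotted line) and the 8 with the most positive change (above it). Grey symbols are scramble and red symbols shLDHA, circles replicate 1 and squares replicate 2; in all 16 genes the groups are apart, by little beside the spread of replicates in some, and none passed the test.

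The 3 paralogues of bacterial protein S18 sit at different places of the mitoribosome, Mrps18a in the large subunit and the others in the small one, and none passed. Mrps18c, in the place of the bacterial protein, read 3.94 and 3.96 in scramble and 4.33 and 4.69 in shLDHA. The log2 change was 0.56 (SE 0.13, 1.47-fold, 95% interval 0.25 to 0.86, limma's adjusted p = 0.0568). Mrps18b read 8.31 and 8.47 in scramble and 8.20 and 8.10 in shLDHA, a change of -0.24 (limma's adjusted p = 0.206). Mrps18a read 7.14 and 7.17 in scramble and 7.15 and 7.17 in shLDHA, with a change of 0.0001 and a 95% interval from -0.20 to 0.20.

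The small subunit genes with the most negative changes were Mrps26, Mrps27 and Mrps10. Mrps26, specific to mitochondria, read 8.28 and 8.12 in scramble and 7.79 and 7.96 in shLDHA (log2 change -0.33, SE 0.10, limma's adjusted p = 0.133). Mrps27, a protein with pentatricopeptide repeats, a fold that binds RNA, read 7.27 and 7.25 in scramble and 6.95 and 7.03 in shLDHA (-0.27, limma's adjusted p = 0.125). Mrps10, a protein of the head, had a change of -0.26 (limma's adjusted p = 0.161). Their groups did not overlap, as in 5 of the 28 small subunit genes and 24.0% of all genes in this direction.

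In the opposite direction the groups were apart in 6 of the 28, and in 26.2% of all genes. Mrps9, a protein of the head whose bacterial homologue touches the transfer RNA, read 8.13 and 7.96 in scramble and 8.25 and 8.43 in shLDHA (0.29, limma's adjusted p = 0.172). Mrps35 read 6.36 and 6.23 in scramble and 6.53 and 6.64 in shLDHA (0.29, limma's adjusted p = 0.133). Mrps30, of the large subunit by place, had a change of 0.26 (limma's adjusted p = 0.133). Mrps5, near the entry of the messenger RNA, changed by 0.10 with a 95% interval from -0.12 to 0.33, and Mrps15, among the brightest, by 0.0229.

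Of the subunit genes with other symbols, Ptcd3, the second pentatricopeptide protein of the small subunit, read 8.76 and 8.67 in scramble and 8.99 and 9.04 in shLDHA (log2 change 0.30, limma's adjusted p = 0.102). Mrps27 and Ptcd3 thus lay on opposite sides of 0. Gadd45gip1, of the large subunit, changed by -0.23 (limma's adjusted p = 0.173). Dap3, a GTP-binding protein of the small subunit, changed by 0.0022 with a 95% interval from -0.19 to 0.20, and with arrays centred on their medians by -0.0096.

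The signal of 5 genes lay below the olfactory receptor level of 4.19 in at least 1 group, and 66 lay above it in both. These were Mrpl27, Mrpl48, Mrps12, Mrps18c and Mrps36, and array signals so low are compressed, so a fold there may understate the change. Mrps12, which takes part in decoding, read 3.65 and 3.65 in scramble and 3.76 and 3.54 in shLDHA. Mrps36 read 3.62 and 3.55 in scramble and 3.54 and 3.63 in shLDHA, and its change of 0.0001 turned to -0.0118 with arrays centred on their medians. The scramble mean of Mrps18c, 3.95, was below this level and its shLDHA mean, 4.51, above it.

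A second probe set with the same single symbol existed for 9 of the 71 genes, and the brighter one was used above. For Mrpl47, at the exit tunnel, the probe sets disagreed. The one used read 6.87 and 6.78 in scramble and 6.72 and 6.77 in shLDHA, a change of -0.08. The other read 6.50 and 6.35 in scramble and 5.91 and 5.83 in shLDHA, a change of -0.56 (95% interval -0.78 to -0.33). Tested as a probe set of its own it passed, with limma's adjusted p of 0.0233, and it was the only 1 of 80 probe sets of these genes to do so, where 5.93% of 23521 probe sets passed. Which transcripts each probe set matches was not tested.

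For Mrps18c the other probe set changed by 0.03 (95% interval -0.19 to 0.25), at 3.84, 3.99, 3.96 and 3.93 on the 4 arrays, on a dim signal, where the one used had 0.56. For Mrpl10 the other probe set, also dim, changed by -0.15 where the one used had 0.33. The pair of Mrps18b gave -0.24 and -0.25, and both of its probe sets were bright. The pairs of Mrps16 and Mrps17 differed in sign, and those of Mrpl12, Mrpl36 and Mrps5 had the same sign.

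**Figure D4:**
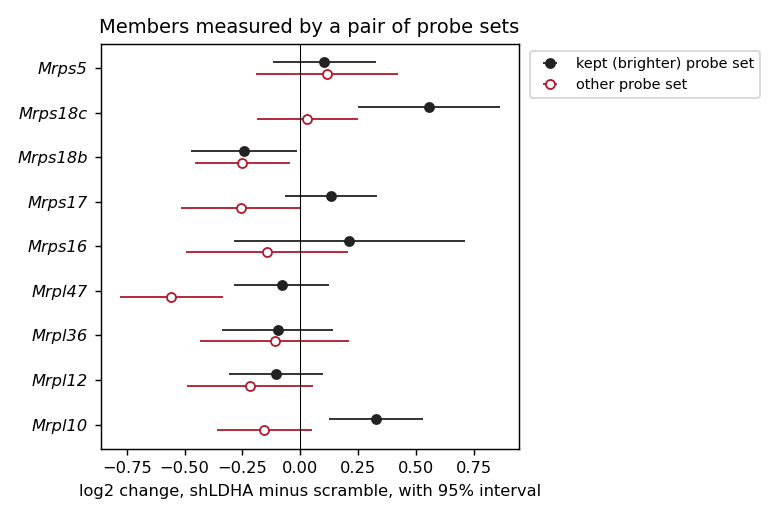
Log2 change (shLDHA minus scramble, x axis) with 95% interval for the 9 mitoribosomal genes that had a pair of probe sets, each tested on its own. Filled points are the brighter probe set, used for the gene, and open points the other; the pairs of Mrpl47, Mrps18c and Mrpl10 lie farthest apart.

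The count of 0 depended on the variance model and on which genes were tested. With an intensity trend in eBayes 8 mitoribosomal genes passed as higher and 4 as lower, 16.9% of the 71, where 12.7% of all genes passed. With only genes whose mean over the 4 arrays was at or above the median, 9 were higher and 3 lower of 68 (17.6%), where 25.1% of the genes tested passed. This filter, chosen after seeing the data, does not depend on which group is brighter. With genes above the 25th percentile of level 4 were higher, Mrpl16, Mrpl18, Mrpl49 and Mrps18c, and 0 lower, where 10.6% passed. The adjusted p of Mrpl16 ran from 0.0118 to 0.214 over 13 settings, and that of Mrps18c from 0.0161 to 0.154. Without shLDHA replicate 1, the change of Mrps18c was 0.73. In that fit the remaining shLDHA array, the higher of the pair, is assumed to vary like the scramble arrays. With the mean of its probe sets its change was 0.29 (limma's adjusted p = 0.140).

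The promoters of the most changed gene of each subunit and direction are shown because they are the extremes of the range, although none of these genes passed. They are the 250 bases before the start of the gene, from RefSeq on build GRCm38.p6, 5′ to 3′ on the gene's strand. Mrpl17 is on chromosome 7 (chr7:105811088-105811337, minus strand), Mrpl49 on chromosome 19 (chr19:6057756-6058005, minus strand), Mrps26 on chromosome 2 (chr2:130563507-130563756, plus strand) and Mrps18c on chromosome 5 (chr5:100798509-100798758, plus strand). Capitals mark matches, on either strand, to CCGGAAG (the core bound by ETS factors such as GABP), GCGCA, any base, GCGC (NRF1) and CACGTG (the E-box bound by MYC and its partners).
Mrpl17: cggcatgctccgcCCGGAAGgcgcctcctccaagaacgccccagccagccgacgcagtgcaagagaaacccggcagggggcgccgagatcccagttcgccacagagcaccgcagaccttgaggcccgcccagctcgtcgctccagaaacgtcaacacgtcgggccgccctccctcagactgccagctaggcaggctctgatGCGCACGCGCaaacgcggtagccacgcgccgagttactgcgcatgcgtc
Mrpl49: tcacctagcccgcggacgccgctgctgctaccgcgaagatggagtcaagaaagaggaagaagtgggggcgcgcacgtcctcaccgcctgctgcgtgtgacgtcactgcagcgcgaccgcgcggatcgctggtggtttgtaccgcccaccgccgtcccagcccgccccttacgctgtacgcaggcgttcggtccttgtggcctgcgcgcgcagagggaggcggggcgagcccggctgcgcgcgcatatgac
Mrps26: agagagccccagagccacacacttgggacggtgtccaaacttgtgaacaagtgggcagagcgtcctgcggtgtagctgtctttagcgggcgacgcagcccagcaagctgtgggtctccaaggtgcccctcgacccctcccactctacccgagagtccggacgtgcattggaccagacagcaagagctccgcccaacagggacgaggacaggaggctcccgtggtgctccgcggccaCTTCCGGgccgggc
Mrps18c: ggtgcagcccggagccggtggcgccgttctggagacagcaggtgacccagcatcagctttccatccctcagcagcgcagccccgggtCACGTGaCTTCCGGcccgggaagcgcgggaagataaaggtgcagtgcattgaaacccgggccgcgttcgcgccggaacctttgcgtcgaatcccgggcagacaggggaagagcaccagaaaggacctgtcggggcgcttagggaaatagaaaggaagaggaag

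GABP and NRF1 are known as regulators of nuclear genes for mitochondrial proteins. In these windows, Mrpl17 held the ETS letters 237 to 231 bases and the NRF1 letters 49 to 40 bases before the start, and Mrps26 the ETS letters 14 to 8 bases before it. Mrps18c held the E-box 163 to 158 and the ETS letters 156 to 150 bases before the start, and Mrpl49 held no match. No marked matches overlapped each other. A match is a description of letters and not a binding site.

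Of the 71 genes, 62 had a promoter in the RefSeq table, and the first listed was used. The ETS letters were in 15 of the 62 (24.2%), in 9.06% of the first promoters of 16990 tested genes and in 6.91% of all 32851 promoters of the table. They were in 9 of 37 large subunit promoters and 6 of 25 small subunit promoters. The NRF1 letters were in 8 of the 62 (12.9%), 7 of them of the large subunit, in 5.44% of the first promoters of tested genes and in 3.74% of all promoters. The E-box was in 5 of the 62 (8.06%), in 6.86% of the first promoters of tested genes and in 6.02% of all promoters. The mitoribosomal promoters also held more CpG, with a median of 16.5 per 250 bases against 10 in the first promoters of tested genes and 6 over all promoters, and all 3 motifs contain CpG. The median log2 change was 0.05 for the 15 genes with the ETS letters and 0.0010 for the 47 without. It was -0.04 for the 8 with the NRF1 letters and 0.0114 for the 54 without, and -0.10 for the 5 with the E-box and 0.0137 for the 57 without.

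Among the genes that serve the mitoribosome, a few passed. Of 13 translation factor genes 1 was higher and 0 lower, beside 6.36% of all genes, with a median of 0.12. It was Guf1, a GTPase that binds the mitochondrial ribosome, which read 7.15 and 7.002 in scramble and 7.69 and 7.72 in shLDHA (log2 change 0.63, SE 0.09, limma's adjusted p = 0.0146). At an unadjusted p under 0.05, 5 of the 13 translation factor genes were higher and 0 lower, beside 11.3% and 10.2% of all genes. Of 31 genes of assembly factors and ribosomal RNA modifiers 1 was higher and 0 lower, with a median of -0.0089. It was Trmt2b, a uridine methyltransferase, which rose by 0.46 (SE 0.09, limma's adjusted p = 0.0409). At the same unadjusted threshold 7 of the 31 were higher and 2 lower. Of 16 mitochondrial aminoacyl-tRNA synthetase genes 0 passed, with a median of 0.09 and 11 above 0. At an unadjusted p under 0.05, 1 of the 16 was higher and 3 lower, beside 11.3% and 10.2% of all genes. Among them were Fars2 at 0.30, Yars2 at -0.29 and Mars2 at -0.24.

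Of 25 genes of mitochondrial transcription and RNA handling, 2 were higher and 1 lower, beside 6.36% of all genes in either direction. Their median was -0.0090. At an unadjusted p under 0.05, 5 of the 25 were higher and 2 lower, beside 11.3% and 10.2% of all genes. Supv3l1, the helicase that helps to degrade mitochondrial RNA, read 7.33 and 7.36 in scramble and 7.99 and 8.08 in shLDHA (log2 change 0.68, SE 0.09, limma's adjusted p = 0.00911). Tfb2m, a transcription factor of the mitochondrial genome, rose by 0.43 (limma's adjusted p = 0.0325), and Trmt10c, a subunit of the RNase P that cuts mitochondrial precursor RNA, fell by 0.49 (limma's adjusted p = 0.0269). Tfb2m had 3 probe sets, and with their mean its change was 0.25 and the call was lost (limma's adjusted p = 0.141). When each array was left out in turn, Supv3l1 kept the call except without shLDHA replicate 2 (0.0595), and Guf1 kept it only without scramble replicate 1 (0.0271), with up to 0.0793 otherwise. Trmt2b, Tfb2m and Trmt10c lost it without any 1 of the arrays, with adjusted p from 0.0664 to 0.175.

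For comparison, 58 genes were chosen by the symbols of cytosolic ribosomal proteins, which make up the ribosome outside mitochondria. This choice by symbol also took in Rps23rg1 (0.11), a gene named after Rps23. Of the 58 genes 0 passed, beside 6.36% of all genes, and the median log2 change was 0.0141. At an unadjusted p under 0.05, 5 of the 58 passed, beside 21.5% of all genes. Their means over the 4 arrays ran from 2.33 (Rpl27a) to 12.20 (Rpl4). Several lay below the olfactory receptor level of 4.19, and others lay near the highest deposited value of 12.91. What part these extremes of signal play in the low share was not tested. Rps27 had a change of -0.35 and Rpl9 one of 0.26, which was 0.0845 with the mean of its probe sets. The dim Rps15 had one of -0.88 (SE 0.31, limma's adjusted p = 0.163) that rested on scramble replicate 1, at 4.20 against 3.14 in the other; it was -0.35 without that array and -1.41 without scramble replicate 2. The difference between the 2 kinds of ribosome was not tested.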

How the data were processed

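The authors deposited log2 expression values of 4 whole-transcript arrays. The submitters' processing notes name RMA and R 3.4.0. Deposited values lay between 1.23 and 12.91 on 41345 probe sets, as log2 signals do. Of these, 23521 had 1 symbol in the platform annotation and were used, 1814 had several and 16010 had none. RefSeq (GRCm38.p6) held the gene ID of 23328. Each gene took its brightest probe set by mean over all 4 arrays, giving 22180 genes.

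Groups came from the sample titles. The test was limma's (version 3.58.1 under R 4.3.3, using lmFit then eBayes, two-sided, no covariate, 2 residual and 4.52 prior degrees of freedom), with Benjamini-Hochberg adjustment over all genes and a threshold of 0.05. Intervals are at 95% and not adjusted. Same-numbered replicates did not deviate together across genes (r = -0.0274). The code was tested on simulated data in 10 runs with 200 changed genes, where 4.76% of calls were false.

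Members and lists were chosen with earlier results of these data known. Named genes were any member past the threshold, the 8 most positive and 8 most negative changes, the 4 brightest and 4 dimmest members, 13 members set by name, subunit genes with other symbols and the leading genes of the accompanying lists; genes named outside this rule were chosen after their values were seen. Lists gave 16, 36, 17 and 31 entries, of which 13, 31, 16 and 25 were tested, in the order translation factors, assembly, synthetases and transcription. Signals of different probe sets do not compare transcript amounts between genes. Figures were drawn with matplotlib 3.10.9.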

Additional observations from a re-analysis of the deposited data

How the results depend on the processing

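With 2 arrays per group, changes as small as those of most mitoribosomal genes could seldom pass. The other settings moved these values most. The replicate number as a replicate block gave 433 genes higher and 405 lower of all genes, with mitoribosomal counts of 0 and 0 and medians of -0.0143 and 0.0183 as before, and Ldha at -0.59 with an adjusted p of 0.0734. The numbers are not known to pair the samples. Only genes whose brighter group mean was at or above the median, 11090 genes, gave 1477 higher and 1359 lower, 25.6% of them. Of the 68 mitoribosomal genes among these, 9 were higher and 3 lower (17.6%), and Mrps18c entered only through its shLDHA mean. A filter on the mean over all arrays, chosen after seeing the data, gave 1442 higher and 1341 lower of 11090 genes (25.1%). The mitoribosomal counts were again 9 and 3, of 68. Genes above the 25th percentile gave 4 mitoribosomal genes higher. An intensity trend gave 1425 and 1381 of all genes and 8 and 4 mitoribosomal ones. Every probe set tested on its own gave 1 mitoribosomal probe set lower and a large subunit median of -0.0420. A threshold of 0.1 gave 1271 and 1120 of all genes and 6 mitoribosomal genes higher. The filtered fits held fewer genes, and the cause of these shifts was not tested.

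Leaving out each array in turn gave 150 to 322 genes higher and 220 to 316 lower of all genes, in fits with fewer samples. The mitoribosomal counts were 0 to 1 higher and 0 to 0 lower. The small subunit median ran from -0.0044 to 0.0604, the large one from -0.0337 to -0.0185 and their difference from 0.0176 to 0.0797, and Ldha from -0.73 to -0.45. In these fits 27 of the 71 members took both signs, 8 of them among the named genes. The named genes whose sign turned were Mrpl24 (-0.12 to 0.0904), Mrpl27 (-0.0578 to 0.38), Mrpl52 (-0.18 to 0.0153), Mrpl58 (-0.0558 to 0.21), Mrps12 (-0.11 to 0.11), Mrps15 (-0.0622 to 0.11), Mrps18a (-0.0193 to 0.0195), Mrps36 (-0.0478 to 0.0479) and Dap3 (-0.0230 to 0.0275). It also turned for Mrpl24 (0.0047) and Mrps36 (-0.0087) with quantile normalization again, and for Mrps36 (-0.0118), Mrps18a (-0.0117) and Dap3 (-0.0096) with arrays centred on their medians. Of 652 values of 47 named genes under the alternatives, 19 turned sign, 51 gained the call and 33 lost it. Without the 5 dim members, a setting chosen after seeing the data, the medians were -0.0203 and 0.0216. No symbol marked a pseudogene, so that setting changed nothing and was not run.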

Other observations

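Mitoribosomal genes often start next to another gene on the opposite strand. By the starts in the RefSeq promoter table (GRCm38.p6), 24 of 62 mitoribosomal genes (38.7%) had such a head-to-head neighbour within 1000 bases, and 14.4% of 16990 tested genes did. Both the neighbour's array signal and the gene's own were measured in all 24 cases. Of the 24 neighbours 1 passed limma's test, 4.17% beside 6.36% of all genes. It was Ncapd2, a condensin subunit gene 614 bases from the start of Mrpl51, which rose by 0.87 (adjusted p = 0.00468), while Mrpl51 changed by 0.20 (adjusted p = 0.235). The other neighbours did not pass. Mrps18c (0.56) starts 159 bases from the DNA helicase gene Helq (-0.06), Mrpl49 (0.39) 192 bases from Fau (0.08), which encodes a cytosolic ribosomal protein fused to a ubiquitin-like protein, and Mrpl18 (0.35) 238 bases from the chaperonin gene Tcp1 (0.0060). In 1 pair both genes were mitoribosomal: Mrpl46 (0.37) and Mrps11 (0.06), of the large and the small subunit, start 42 bases apart. Differences within these pairs were not tested.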
